A study of Mus musculus with 8 samples.

Results

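The genes described here are 10 transcripts taken as markers of a progenitor state of fibroblasts, the state named after the proteins DPP4 and PI16. They are Dpp4, Pi16, Sema3c, Cd55, Efhd1, Smpd3, Ugdh, Pcolce2, Stmn4 and Arl4d. The set was chosen with earlier results of these data known, and whether each gene marks such a state was not tested. All 10 were found by symbol among the 31053 genes of the count matrices. They were followed in cells with at least 500 genes detected, at most 10% mitochondrial UMIs (unique molecular identifiers, each standing for 1 captured transcript) and at least 1 UMI of Pdgfra, the receptor used to sort the cells. That rule kept 1533 of 2073 wild type barcodes and 1435 of 1724 dysferlin knockout barcodes, 2968 of 3797 in all.

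The cells were fibro/adipogenic progenitors (FAPs), stromal cells of muscle that carry the receptor PDGFRα, taken from the dissected hindlimb muscles and psoas of 8-month-old female mice. Tendon, nerve and fascia had been trimmed off, dead cells and doublets were gated out, and PDGFRα-positive cells were sorted before droplet capture with a 3′ kit, per the labels' protocols. The controls are wild type, labelled C57BL/6. The other group is labelled dysferlin KO, with the strain written BLA/J in the labels and B6A/J in the protocol, so strain background and dysferlin genotype cannot be told apart. The labels list 4 samples in each group, but the files hold 1 matrix per group and nothing ties a cell to a sample. Each group was therefore 1 library, no test between the groups was possible, and every interval below is a 95% interval that covers counting error only. Library and genotype cannot be told apart either.

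FAPs do not form muscle fibres themselves. They build the extracellular matrix of muscle, feed the muscle stem cells with growth signals after injury, and can turn into fibroblasts or fat cells when repair goes wrong. Across tissues, fibroblasts that carry Dpp4 and Pi16 sit in loose connective tissue and around vessels and are regarded as a reserve from which more specialised fibroblasts arise, whereas other FAPs lie between the fibres. The 10 genes have unlike jobs. Dpp4 and Cd55 encode cell surface proteins, Pi16, Sema3c and Pcolce2 secreted ones, Smpd3 and Ugdh enzymes, and Efhd1, Stmn4 and Arl4d proteins inside the cell.

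The selected cells held 14420247 UMIs in wild type and 19170199 in knockout cells, and a median of 9177 and 12717 UMIs per cell. Because the knockout library was deeper, shares of cells were compared after each cell was thinned at random to 4000 UMIs, which kept 1323 wild type and 1318 knockout cells and left out 210 and 117 shallower ones. Levels are given as CPM, UMIs per 1000000 UMIs of the selected cells. Pdgfra was at 494 CPM in wild type and 490 CPM in knockout cells, and all 10 general FAP markers of the list used were above 20 CPM. Dysf itself was near the detection floor in both libraries, with 9 UMIs in wild type and 14 in knockout cells, and 3′ tags need not read the altered part of the gene, so it does not check the labels. The libraries shared 13 barcodes, of which 2 were among the selected cells of both. Among other cell types, immune markers summed to 4.85 and 16.4 CPM with 4 and 2 of 11 genes at 0, and satellite cell markers to 20.7 and 8.503 CPM with 2 and 4 of 5 genes at 0. Endothelial markers summed to 106 and 74 CPM, mostly from Tek, which the progenitor list below also holds. The 5 tenocyte markers summed to 598 CPM in wild type and 976 CPM in knockout cells, nearly all from Thbs4, and are set beside the results below.

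The sequences upstream of the start of transcription are shown for Dpp4, which names the state, and for the members with a promoter entry that differed most in level between the libraries, Efhd1, Pcolce2 and Arl4d. They are the 250 bases before the RefSeq start, 5′ to 3′ on the gene's strand, from GRCm38.p6, at chr2:62412232-62412481 (minus strand), chr1:87264103-87264352 (plus strand), chr9:95637378-95637627 (plus strand) and chr11:101665291-101665540 (plus strand), and matches to the motifs searched are in capitals.
Dpp4: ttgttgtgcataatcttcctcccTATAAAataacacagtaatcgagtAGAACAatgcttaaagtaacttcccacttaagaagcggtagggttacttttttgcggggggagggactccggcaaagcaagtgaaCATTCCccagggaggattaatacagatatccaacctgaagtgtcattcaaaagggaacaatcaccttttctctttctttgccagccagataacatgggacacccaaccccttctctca
Efhd1: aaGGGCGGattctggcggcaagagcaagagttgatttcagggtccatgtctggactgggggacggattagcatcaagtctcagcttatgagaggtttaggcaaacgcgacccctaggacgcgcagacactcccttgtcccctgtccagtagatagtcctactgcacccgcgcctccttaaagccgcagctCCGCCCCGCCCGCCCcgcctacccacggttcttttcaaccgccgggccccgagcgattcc
Pcolce2: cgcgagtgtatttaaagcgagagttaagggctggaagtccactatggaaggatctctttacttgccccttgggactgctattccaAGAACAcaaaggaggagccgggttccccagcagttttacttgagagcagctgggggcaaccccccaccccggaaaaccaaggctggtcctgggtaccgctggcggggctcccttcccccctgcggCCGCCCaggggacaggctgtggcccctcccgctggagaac
Arl4d: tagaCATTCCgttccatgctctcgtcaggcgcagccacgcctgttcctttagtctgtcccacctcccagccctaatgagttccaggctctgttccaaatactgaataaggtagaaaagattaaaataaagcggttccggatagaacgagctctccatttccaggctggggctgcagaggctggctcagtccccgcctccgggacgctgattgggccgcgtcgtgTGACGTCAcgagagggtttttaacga
Both strands were searched for the cyclic AMP response element TGACGTCA, the AP-1 motif TGANTCA, the GC box GGGCGG, the TATA box TATAAA, the TEAD motif GGAATG and the glucocorticoid receptor motif AGAACA in the promoters of 8 members, all but Smpd3 and Stmn4. The cyclic AMP response element was found in Arl4d alone, from 26 to 19 bases before the start, and 1.55% of 32851 RefSeq promoters hold it. The GC box was found in 5 members, Sema3c, Cd55, Efhd1, Ugdh and Pcolce2, and in 32.7% of all promoters. AGAACA was found in Dpp4, Pi16 and Pcolce2 and in 16.1% of all promoters, GGAATG in Dpp4 and Arl4d and in 12.6%, and TATAAA in Dpp4 and in 12.4%. TGANTCA was found in none of the 8, and 6.75% of all promoters hold it. No 2 of these motifs overlapped in the promoters shown, but the 3 GC boxes nearest the start of Efhd1 touch or share bases. A match describes the letters only.

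All 10 genes were lower in CPM in the dysferlin knockout library than in the wild type library, but by very unequal amounts. Stmn4 and Arl4d stood far apart from the rest, Efhd1 and Pcolce2 came next, and Sema3c and Cd55 were hardly lower. At least 1.5-fold lower were 4 of the 10 members, and 0 were at least 1.5-fold higher. Of all 5933 genes with a mean of at least 20 CPM, 3.59% were at least 1.5-fold lower, 5.07% at least 1.5-fold higher and 41.4% below a log2 ratio of 0. The median log2 ratio, knockout over wild type, was -0.48 over the members and 0.05 over all 5933 genes.

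**Figure D1:**
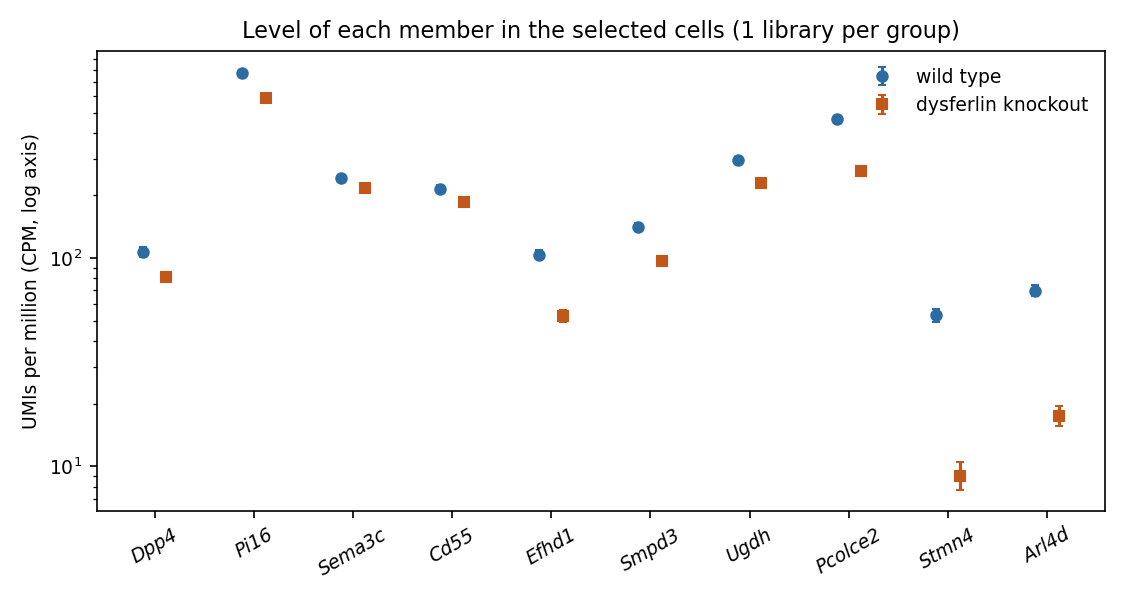
Level of each member in the selected cells of the wild type library (blue circles) and the dysferlin knockout library (orange squares), in CPM on a log axis, with exact 95% Poisson intervals that cover counting error only and are often smaller than the symbols. Every member is lower in the knockout, and Stmn4 (53.1 and 9.02 CPM) and Arl4d (69.9 and 17.4 CPM) show the widest gaps.

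Of the surface proteins, Dpp4 (chr2:62330073-62412231, minus strand, GENCODE annotation of GRCm38) encodes a peptidase that trims chemokines and incretin hormones. It was at 107 CPM in the wild type (1543 UMIs) and 81.2 CPM in the knockout (1557 UMIs), a log2 ratio of -0.40 (-0.50 to -0.30). Few cells held many copies, since the cell with most Dpp4 had 16 UMIs in wild type and 19 in knockout cells. Cd55 (chr1:130439027-130462744, minus strand) encodes decay-accelerating factor, which protects cells from complement. It was at 216 CPM in wild type and 187 CPM in knockout cells, a log2 ratio of -0.21 (-0.28 to -0.14). Its paralog Cd55b had 3 UMIs in wild type and 1 in knockout cells, and how reads that match both copies were counted was not examined.

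Pi16 (chr17:29317680-29330593, plus strand), which encodes a secreted protein of the CAP family, was the most abundant member in UMIs. It was at 771 CPM in the wild type (11120 UMIs) and 586 CPM in the knockout (11234 UMIs), a log2 ratio of -0.40 (-0.43 to -0.36). Its counts were spread very unevenly over cells. Before thinning, at least 10 UMIs were found in 21.6% of wild type and 20.9% of knockout cells, and the highest cells held 184 and 139, at the unequal depths given above. Sema3c (chr5:17574281-17730268, plus strand) encodes a secreted semaphorin, a guidance cue read by neuropilins and plexins. It was at 243 CPM in wild type and 216 CPM in knockout cells, a log2 ratio of -0.17 (-0.23 to -0.10), the smallest of the 10. Pcolce2 (chr9:95637601-95698096, plus strand) encodes an enhancer of the proteinases that cut the C-terminal propeptide from procollagen. It was at 466 CPM in wild type and 263 CPM in knockout cells, a log2 ratio of -0.83 (-0.88 to -0.77), or 1.77-fold lower. Unlike Pi16, Pcolce2 was spread over many cells, and the tenth of wild type cells with most of it held 38.3% of its UMIs, against 59.1% for Pi16.

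Smpd3 and Ugdh encode enzymes. Smpd3 (chr8:106252548-106337988, minus strand) encodes neutral sphingomyelinase, which makes ceramide at membranes. It was at 142 CPM in wild type and 96.7 CPM in knockout cells, a log2 ratio of -0.55 (-0.64 to -0.46), just short of the 1.5-fold line. Smpd3 was the most concentrated of the members above 100 CPM in the wild type. The tenth of cells with most of it held 76.6% of its wild type UMIs and 83.9% of its knockout UMIs. Ugdh (chr5:65413221-65435949, minus strand) encodes UDP-glucose dehydrogenase, which makes the UDP-glucuronate used for hyaluronan. It was at 295 CPM in wild type and 230 CPM in knockout cells, a log2 ratio of -0.36 (-0.42 to -0.30).

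The largest gaps were in the transcripts that encode proteins of the cell interior. Efhd1 (chr1:87264363-87310839, plus strand), which encodes a calcium-binding protein of mitochondria, was at 104 CPM in wild type and 52.7 CPM in knockout cells. Its log2 ratio was -0.98 (-1.09 to -0.86), and 1.15% of the 5933 genes were lower still. Arl4d (chr11:101665541-101667832, plus strand) encodes a small GTPase of the ARF-like family that acts at the plasma membrane and the cytoskeleton. It was at 69.9 CPM in the wild type (1008 UMIs in 462 cells) and 17.4 CPM in the knockout (334 UMIs in 204 cells), 4.01-fold lower (3.54 to 4.55). Stmn4 (chr14:66344296-66361680, plus strand) encodes a stathmin, a protein that binds tubulin and is best known from neurons. It was at 53.1 CPM in the wild type (765 UMIs in 289 cells) and 9.02 CPM in the knockout (173 UMIs in 87 cells), 5.88-fold lower (4.98 to 6.97). Ordered from the lowest ratio, Stmn4 was number 5 and Arl4d number 10 of 5933 genes, and 1.01% of all genes were at least 2-fold lower. Both libraries counted over 100 UMIs of each, well above the 3 UMIs taken as the floor, 0.208 CPM in wild type and 0.156 CPM in knockout cells.

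Seen as shares of cells, Pcolce2, Arl4d, Efhd1, Stmn4, Smpd3 and Dpp4 again stood lower in the knockout, while the most abundant gene, Pi16, hardly differed. At 4000 UMIs per cell Pi16 was seen in 53.8% of wild type cells (51.1 to 56.5) and 51.7% of knockout cells (48.9 to 54.4), intervals that overlap. Pcolce2 was seen in 67.3% (64.7 to 69.9) and 49.8% (47.1 to 52.6), Efhd1 in 25.6% (23.3 to 28.1) and 14.5% (12.6 to 16.5), Smpd3 in 21.2% (19.0 to 23.5) and 15.0% (13.1 to 17.1), and Dpp4 in 25.1% (22.8 to 27.5) and 20.3% (18.2 to 22.6). Arl4d was seen in 20.9% (18.7 to 23.2) and 6.60% (5.32 to 8.08), and Stmn4 in 13.0% (11.2 to 14.9) and 3.11% (2.24 to 4.20). For these genes the intervals of the libraries did not overlap. How many of all genes share this was not counted, so it is not read as particular to the members. Sema3c (37.6% and 32.6%), Cd55 (41.6% and 36.6%) and Ugdh (44.3% and 40.5%) were also lower in the knockout, with intervals that overlapped.

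The direction of several of these shares changed with depth, and also when cells with tenocyte markers were left out, as given below. Without thinning, Dpp4 was seen in 37.0% of wild type and 37.2% of knockout cells, Pi16 in 62.7% and 68.9%, Sema3c in 49.1% and 50.7%, Cd55 in 56.7% and 59.0%, and Ugdh in 61.3% and 65.1%. Those 5 shares were higher in the deeper knockout library although the CPM were lower, so no order is read from them. The unthinned shares of the other genes had the direction of their levels: Pcolce2 76.3% and 67.5%, Efhd1 35.5% and 24.6%, Smpd3 28.7% and 24.1%, Arl4d 30.1% and 14.2%, Stmn4 18.9% and 6.06%.

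**Figure D2:**
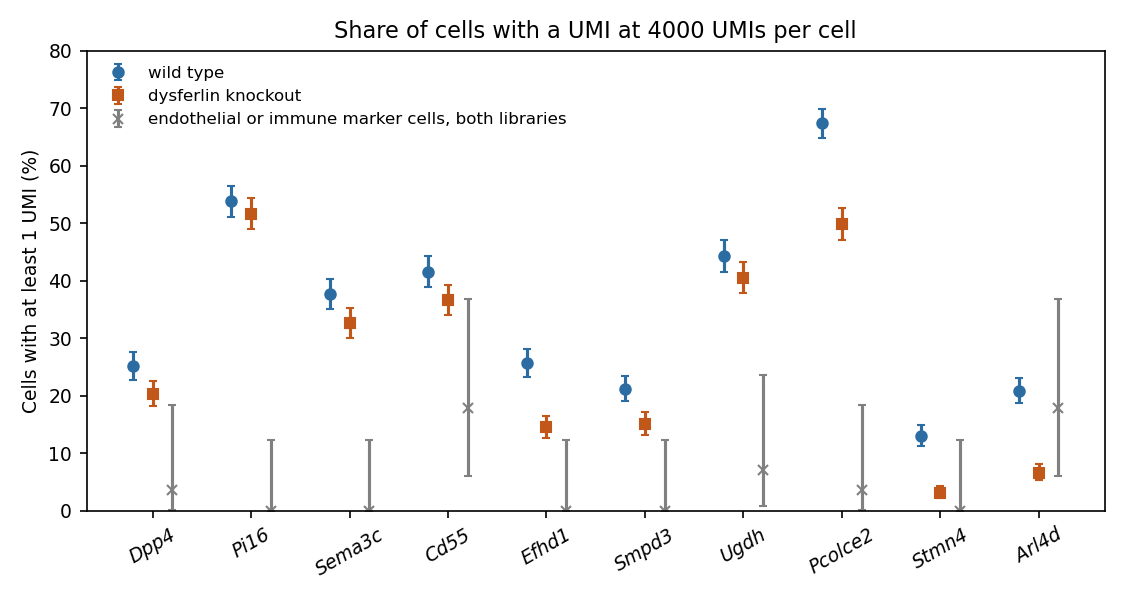
Share of cells with at least 1 UMI of each member after thinning to 4000 UMIs per cell, for 1323 wild type cells (blue circles), 1318 knockout cells (orange squares) and 28 cells of both libraries that have no Pdgfra UMI and at least 3 endothelial or immune markers (grey crosses), with exact 95% Clopper-Pearson intervals. Pcolce2, Efhd1, Stmn4 and Arl4d are furthest apart, and the knockout share of Arl4d (6.60%) is below the grey point (17.9%).

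Free RNA in the droplets can give a UMI to a cell that does not express a gene, so the shares were also taken in 51 endothelial or immune cells, chosen by at least 3 markers of either type and no Pdgfra UMI, 41 from the wild type and 10 from the knockout. Their median depth was 4411 and 9618 UMIs. Stmn4, Efhd1 and Smpd3 were seen in 0 of the 51, Sema3c and Pcolce2 in 1 each, Dpp4 and Pi16 in 3 each, Ugdh and Arl4d in 6 each and Cd55 in 11. The 51 cells held 74 UMIs of Cd55 and 12 of Arl4d, against 5 of Pi16. For Cd55 and Arl4d they are therefore not a plain measure of free RNA, and whether they express these 2 genes was not tested. At 4000 UMIs the 28 cells that were deep enough gave 0 for Pi16, the most abundant member in the selected cells, which allows a share of up to 12.3%, and 5 each for Cd55 and Arl4d (17.9%, 6.06 to 36.9). All 6 cells with Arl4d were endothelial-marker cells of the wild type, and 0 of the 10 knockout cells had it. The knockout share of Arl4d in the selected cells (6.60%) lies below this comparison, so as a share it is not read as expression. The wild type share of Arl4d (20.9%) and the knockout share of Cd55 (36.6%) also lie within the wide interval of these 28 cells, so their shares, split or paired below, are given as values. Of the genes seen less often in the knockout library, Stmn4 (3.11%) also lies below the highest share, 12.3%, that 0 of 28 cells leaves possible.

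The 10 genes tended to sit in the same cells. Every one of the 45 pairs was found together in more cells than the product of the 2 shares gives, in both libraries, and 26.3% of 44372910 pairs of genes seen in at least 2% of cells were above the product in both. The median ratio of observed cells to the product was 1.41 over the pairs in wild type and 1.60 in knockout cells, and 1.00 over all gene pairs in either library. By the phi coefficient, a correlation of presence and absence across cells, 40 of the 45 pairs reached 0.1 in both libraries, as did 0.018% of all gene pairs. The phi values are a description of cells that share a library, and cells were set to equal depth before they were computed. The highest phi a pair can reach depends on its 2 shares. The 10 genes were chosen with earlier results of these data known, and the gene pairs beside them were not matched to their shares. The counts of pairs therefore describe the set and test nothing.

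**Figure D3:**
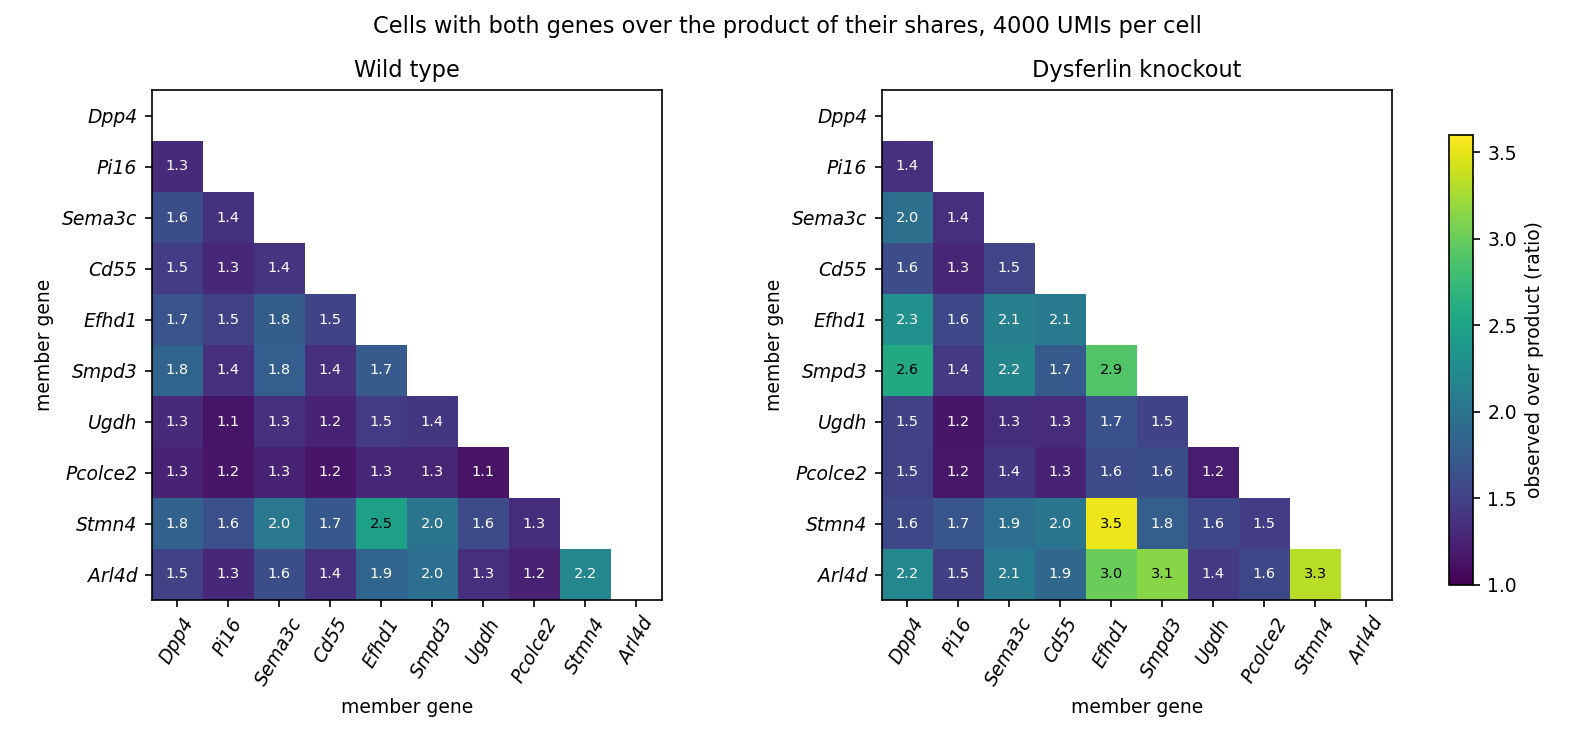
Number of cells with both genes over the number given by the product of the 2 shares, for each of the 45 pairs of members, in 1323 wild type cells (left) and 1318 knockout cells (right) thinned to 4000 UMIs, with the ratio written in each square. Every square is above 1, from 1.14 to 2.47 in the wild type and from 1.16 to 3.53 in the knockout.

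Dpp4 and Pi16, the genes that name the state, were not the closest pair. They were found together in 236 wild type cells, against 179 from the product (ratio 1.32, phi 0.20), and in 190 knockout cells, against 138 (ratio 1.37, phi 0.19). Of the Dpp4-positive cells 71.1% of the wild type and 70.9% of the knockout ones had Pi16, against 48.0% and 46.8% of the Dpp4-negative cells. Thus Pi16 was common outside the Dpp4-positive cells as well.

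The closest pair held Sema3c in either library. In the wild type the highest phi was that of Sema3c and Efhd1 (0.35), found together in 226 cells against 128 from the product. In the knockout it was that of Sema3c and Smpd3 (0.35), in 141 cells against 64.6. Efhd1 and Stmn4 had the highest ratio in both libraries, 2.47 in the wild type (109 cells against 44.1) and 3.53 in the knockout (21 cells against 5.94). The loosest pair was Pi16 and Ugdh in the wild type (phi 0.14) and Dpp4 and Stmn4 in the knockout (phi 0.05, 13 cells against 8.34). The ratio was higher in the knockout for 38 of the 45 pairs and phi for 15, and the ratio can grow as shares shrink, so neither is read as closer company in the knockout.

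Pairs with Stmn4 and Arl4d rest on few knockout cells. The median phi of Stmn4 with the other members was 0.23 in wild type and 0.11 in knockout cells, and that of Arl4d 0.18 and 0.16. Both genes had smaller shares in the knockout, which also limits phi, so no looser company is read from these values. Smpd3 and Stmn4 were together in 11 knockout cells against 6.16 (phi 0.06), and Ugdh and Stmn4 in 26 against 16.6 (phi 0.08). Stmn4 and Arl4d were together in 79 wild type cells against 35.9 from the product, and in 9 knockout cells against 2.71. Smpd3 and Arl4d were together in 114 wild type cells against 58.4, and in 41 knockout cells against 13.1.

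Counted per cell, the members formed a broad distribution with an excess at both ends. Wild type cells had 3.50 of the 10 genes on average (SD 2.48 across cells) and knockout cells 2.71 (SD 2.19), where the product of the shares gives SDs of 1.42 and 1.30. None of the 10 was seen in 8.77% of wild type and 11.4% of knockout cells, against 0.926% and 3.22% from the product. At least 7 were seen in 199 wild type cells (15.0%, 13.2 to 17.1) and 123 knockout cells (9.33%, 7.82 to 11.03), against 1.91% and 0.253%. All 10 were seen in 11 wild type and 2 knockout cells.

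**Figure D4:**
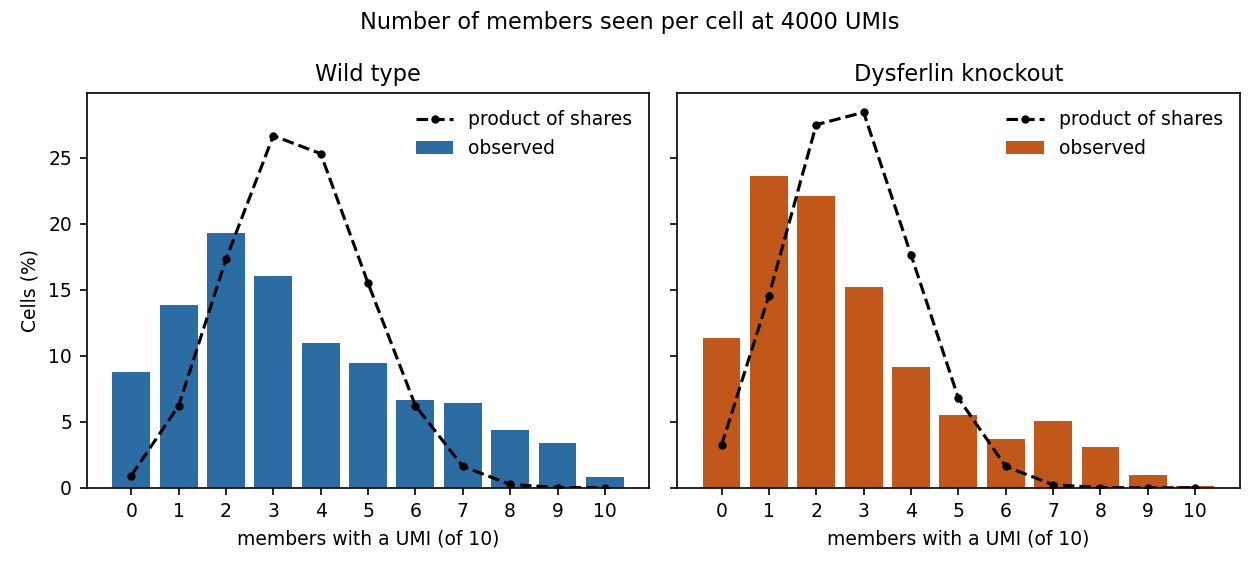
Share of cells by the number of the 10 members with at least 1 UMI at 4000 UMIs per cell, in the wild type (left, blue bars) and the knockout (right, orange bars), with the distribution given by the product of the shares (black points and dashed line). Both libraries have more cells at 0 and from 7 upwards than the product gives.

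Leaving out Stmn4 and Arl4d, which were seen so rarely in the knockout, at least 5 of the other 8 genes were seen in 361 wild type cells (27.3%, 24.9 to 29.8) and 229 knockout cells (17.4%, 15.4 to 19.5). The gap lay mostly in cells with 5 of these 8 genes (132 wild type and 70 knockout cells) or 6 (110 and 58). Cells with 7 (81 and 68) or all 8 (38 and 33) were nearer in number. Fewer cells of a kind and less RNA per cell cannot be told apart from these counts.

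Among cells with many other members, 6 of the genes were at or above the wild type level in the knockout, and Stmn4 and Arl4d were far below it. With at least 5 of the other 7 genes (Stmn4 and Arl4d not counted), Sema3c was seen in 80.8% of wild type and 87.9% of knockout cells, Cd55 in 73.6% and 82.0%, Ugdh in 69.8% and 76.2%, Dpp4 in 52.9% and 63.1%, Smpd3 in 44.0% and 53.5%, and Pi16 in 87.0% and 89.5%. The log2 ratio of their UMIs in these cells was 0.33 (0.18 to 0.49) for Sema3c, 0.30 (0.12 to 0.47) for Cd55, 0.30 (0.13 to 0.47) for Ugdh, 0.23 (0.03 to 0.43) for Smpd3, 0.22 (-0.05 to 0.48) for Dpp4 and 0.01 (-0.09 to 0.10) for Pi16. Efhd1 (-0.26, -0.53 to -0.01) and Pcolce2 (-0.30, -0.46 to -0.14) stayed lower. Stmn4 was seen in 124 of 361 wild type cells (34.3%, 29.5 to 39.5) and 22 of 229 knockout cells (9.61%, 6.12 to 14.2), and Arl4d in 41.6% (36.4 to 46.8) and 22.7% (17.5 to 28.7). Their log2 ratios were -2.20 (-2.81 to -1.64) and -1.21 (-1.63 to -0.82). The cells compared were picked by the members' own counts, so these values describe them and test nothing.

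**Figure D5:**
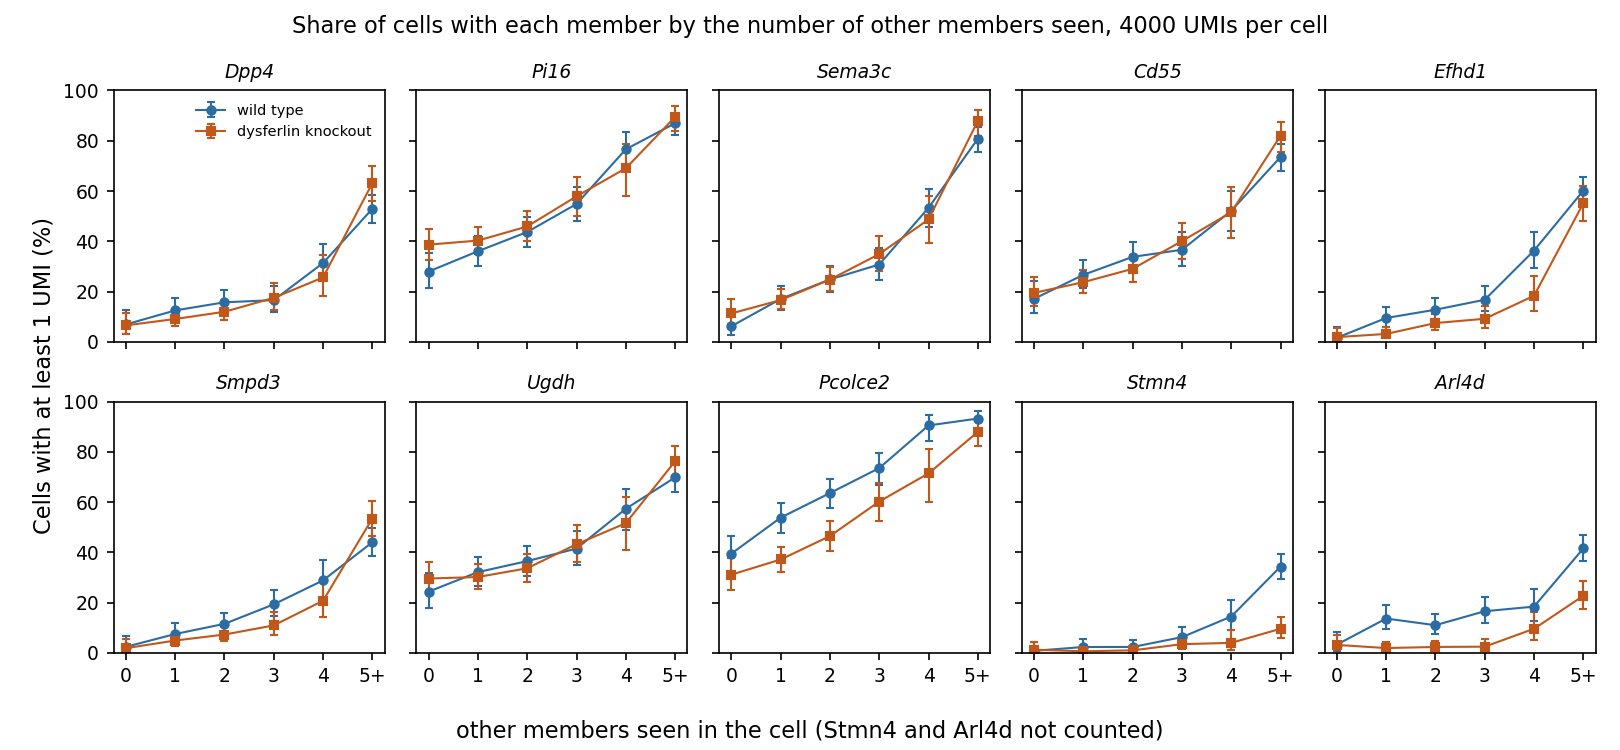
Share of cells with at least 1 UMI of each member (vertical axis, %) by the number of other members seen in the cell (horizontal axis, Stmn4 and Arl4d not counted), in wild type (blue circles) and knockout (orange squares) cells at 4000 UMIs, with exact 95% Clopper-Pearson intervals. All 10 shares are higher in cells with 5 or more others than in cells with none, and Stmn4 and Arl4d are lower in the knockout at 5 or more (34.3% against 9.61%, 41.6% against 22.7%).

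A Pi16 or Dpp4 UMI was found in 808 wild type cells (61.1%, 58.4 to 63.7) and 759 knockout cells (57.6%, 54.9 to 60.3) at 4000 UMIs. The other 8 genes were at least 1.5-fold higher in these positive cells than in the negative ones in both libraries, and so were 1.69% of 5930 genes. Their median log2 ratio, positive over negative, was 1.90 for the wild type and 1.95 for the knockout, and 0.01 and 0.00 over all genes. The 8 genes were chosen with earlier results of these data known, so these values describe them and test nothing. Stmn4 was highest, at 77.0 CPM in positive and 10.2 CPM in negative wild type cells (7.56-fold) and 15.5 and 2.24 CPM in the knockout (6.92-fold, from 47 and 5 UMIs). Smpd3 was 4.55-fold and 5.42-fold higher, Sema3c 4.31-fold and 4.56-fold, Efhd1 3.81-fold and 6.81-fold and Cd55 3.67-fold and 2.85-fold. Pcolce2 (2.29-fold and 2.28-fold), Ugdh (2.15-fold in either library) and Arl4d (2.25-fold and 3.29-fold) had the smallest wild type ratios. Among knockout cells Cd55 was below Arl4d.

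Within the positive cells, the knockout levels kept the order seen in all cells. The log2 ratio, knockout over wild type, was -2.32 (-2.80 to -1.86) for Stmn4, -1.81 (-2.18 to -1.46) for Arl4d and -0.67 (-0.78 to -0.56) for Pcolce2, and Efhd1 was at 146 and 85.3 CPM (-0.78). It was -0.41 (-0.58 to -0.23) for Smpd3, -0.26 (-0.38 to -0.13) for Ugdh, -0.20 (-0.33 to -0.06) for Cd55 and -0.08 (-0.20 to 0.05) for Sema3c, whose interval spans 0. In the negative cells Arl4d (-2.36, -3.16 to -1.64), Stmn4 (-2.19, -3.95 to -0.74), Efhd1 (-1.61, -2.29 to -0.98), Pcolce2 (-0.67, -0.86 to -0.47), Smpd3 (-0.66, -1.14 to -0.18) and Ugdh (-0.25, -0.48 to -0.03) were also lower. There the intervals of Sema3c (-0.16, -0.48 to 0.17) and Cd55 (0.17, -0.13 to 0.47) span 0.

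Genes outside the 10 that separated Pi16- or Dpp4-positive from negative cells most widely in both libraries were Cmah, Car8, Limch1, Cxcl13, Aif1l and Ackr1, and Stmn4, Smpd3, Sema3c and Efhd1 were the other 4 of the leading 10. Cmah, which encodes the hydroxylase that turns one sialic acid into another, was at 37.7 CPM in positive and 3.88 CPM in negative wild type cells and at 66.5 and 7.60 CPM in the knockout. Over all selected cells it was higher in the knockout, by 0.60 on the log2 scale (0.43 to 0.77), unlike the members. Limch1 was lower in the knockout (-0.73, -0.93 to -0.53), and Car8, a carbonic anhydrase-related protein, stood at -0.35 (-0.57 to -0.12). At the other end stood Dlk1, Cxcl10, Spon1, Tnc and Apoe, the genes with the lowest ratios of positive to negative cells, though not absent from positive ones. Cxcl10 reached the mean of 20 CPM through the knockout alone (5.96 CPM in wild type and 54.1 CPM in knockout cells). Apoe, which encodes a lipid carrier, was at 206 CPM in positive and 790 CPM in negative wild type cells and at 193 and 449 CPM in the knockout. Dlk1, which encodes a preadipocyte factor, was at 5.88 and 72.3 CPM, and at 15.2 and 58.6 CPM in the knockout.

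Cell by cell, the 5 genes closest to Pi16 by phi among 7007 genes were Sema3c (0.32 in the wild type, 0.26 in the knockout), Efhd1 (0.32 and 0.24), Anxa3 (0.32 and 0.24), Pcsk6 (0.26 and 0.23) and Cd55 (0.27 and 0.22). The 5 closest to Dpp4 were Anxa3 (0.29 and 0.32), Sema3c (0.28 and 0.34), Smpd3 (0.25 and 0.34), Creb5 (0.24 and 0.25) and Ackr3 (0.24 and 0.23). Anxa3 encodes an annexin, Pcsk6 a proprotein convertase, Creb5 a transcription factor and Ackr3 a scavenging chemokine receptor. Dpp4 was number 12 on the Pi16 ranking and Pi16 number 21 on the Dpp4 ranking, so by phi each had closer neighbours among the other members. These ranks were not corrected for the shares of the genes, which limit phi.

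A wider list of 28 universal fibroblast and progenitor genes, 25 of them above 20 CPM, was mostly higher in the same cells, and its members differed between the libraries in both directions. At least 1.5-fold higher in Pi16- or Dpp4-positive cells in both libraries were 16 of the 25, against 1.69% of all genes, with median log2 ratios of 1.02 and 0.79. This list and the interstitial one below were chosen with earlier results of these data known, so their counts describe them and test nothing. In the knockout 7 of the 25 were at least 1.5-fold lower and 2 at least 1.5-fold higher, with a median log2 ratio of -0.15. Of all genes 3.59% were lower and 5.07% higher by the same line. Lower were Ackr3 (502 and 243 CPM), Igfbp6 (2731 and 1368 CPM, a binding protein of insulin-like growth factors), Procr (86.2 and 45.5 CPM, the protein C receptor), Limch1, Tek, Anxa3 (358 and 237 CPM) and Nov (173 and 110 CPM). Higher were Fn1, which encodes fibronectin (1065 and 2036 CPM), and Cmah. Of 19 genes of interstitial FAPs, 0 were higher and 5 lower in positive cells in both libraries, against 0.911% of all genes lower. In the knockout 5 of the 19 were lower and 3 higher, against the same 3.59% and 5.07% of all genes.

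Few relatives of the members in their own pathways passed the 1.5-fold line. Of 7 other genes of hyaluronan synthesis and turnover, 0 were at least 1.5-fold lower and 1, the hyaluronan receptor Cd44 (56.4 and 97.8 CPM), was higher. Ugp2, which makes the substrate of Ugdh, was at 215 and 146 CPM (-0.55). Among the dipeptidyl peptidases, 4 relatives of Dpp4 passed neither line, and Fap was at 203 and 272 CPM. The 6 relatives of Smpd3 in sphingomyelin and ceramide metabolism, the 3 complement regulators beside Cd55, the 2 semaphorin receptors (Nrp1 and Plxna1) and the 2 procollagen proteinase genes (Pcolce and Bmp1) passed neither line. Pcolce, the paralog of Pcolce2, was at 1313 and 1406 CPM (0.10), against -0.83 for Pcolce2. No stathmin other than Stmn4 had a mean of 20 CPM over the libraries. Stmn1, best known from dividing cells and neurons, was higher in the knockout (7.14 and 27.2 CPM), while Stmn2 (14.3 and 7.20 CPM) and Stmn3 (5.89 and 2.09 CPM) were lower. Arl4a, the relative of Arl4d, was also lower, at 203 and 75.4 CPM (-1.43).

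The lower levels did not occur alone. Of 18 immediate early genes, which switch on quickly when cells are stimulated or handled, 12 were at least 1.5-fold lower in the knockout and 0 higher (median -0.76), and their median share of a cell's UMIs was 0.911% for the wild type and 0.444% for the knockout. Of 10 measured glucocorticoid-induced genes 6 were lower and 1 higher (median -1.14). Beside both lists, 3.59% of all 5933 genes were at least 1.5-fold lower and 5.07% at least 1.5-fold higher. In the cells at or below the pooled median share of immediate early UMIs, 593 and 891 in number, the 4 members called lower in all cells stayed low. Stmn4 was at -2.86, below its interval in all cells (-2.80 to -2.32), Arl4d at -1.94, Efhd1 at -1.07 and Pcolce2 at -0.86. Cd55 was at -0.35, the lowest of its 16 alternatives. The part of immediate early genes in the differences was not tested. In those at or below the pooled median share of glucocorticoid-induced UMIs, 538 and 946 in number, all 10 members were below 0, as were 43.5% of all genes, and 7 were at least 1.5-fold lower, as were 2.81%, with Stmn4 at -2.50, Arl4d at -1.80, Pi16 at -0.61 and Dpp4 at -0.60.

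Thbs4, which encodes thrombospondin 4 and stood on the tenocyte list, was higher in the knockout library. It was at 569 CPM in wild type and 942 CPM in knockout cells, and at 4000 UMIs it was seen in 26.3% (23.9 to 28.8) and 45.3% (42.6 to 48.0) of cells. The other 4 tenocyte markers, Tnmd, Scx, Fmod and Mkx, were between 0.208 and 19.7 CPM in the wild type and between 0.887 and 16.7 CPM in the knockout. Cells were split by a UMI of the list before thinning, so the split also follows depth. A UMI of the list was found in 32.4% of wild type and 57.1% of knockout cells. The median depth was 10128 UMIs with and 8536 without one in the wild type, and 14302 and 10721 in the knockout. In the 1036 wild type and 615 knockout cells with no UMI of the tenocyte list, Dpp4 was at 125 and 124 CPM (-0.01, -0.14 to 0.12), Smpd3 at 194 and 199 CPM (0.04, -0.06 to 0.14) and Ugdh at 341 and 333 CPM (-0.04, -0.11 to 0.04). Their intervals span 0, so no difference in these 3 was detectable there beyond counting error. Sema3c (285 and 346 CPM, 0.28, 0.20 to 0.36) and Cd55 (241 and 267 CPM, 0.15, 0.06 to 0.24) were higher in the knockout in these cells. Pi16 (-0.18, -0.23 to -0.13), Efhd1 (-0.42, -0.57 to -0.28) and Pcolce2 (-0.44, -0.51 to -0.37) were less far below 0.

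Stmn4 and Arl4d were the 2 members that remained at least 1.5-fold lower without those cells, against 3.07% of 5932 genes. Stmn4 was at 62.1 and 11.98 CPM (-2.37, -2.72 to -2.04) and Arl4d at 90.0 and 33.0 CPM (-1.45, -1.67 to -1.24). In the 497 wild type and 820 knockout cells that did have a UMI of the list, all 10 members were below 0, as were 40.6% of 5933 genes, and 5 were at least 1.5-fold lower, as were 3.57%. There Smpd3 was at 57.8 and 37.5 CPM (-0.63, -0.84 to -0.41), Dpp4 at 78.6 and 56.7 CPM (-0.47, -0.65 to -0.29) and Efhd1 at 71.7 and 30.0 CPM (-1.26, -1.47 to -1.05). In either library the level of every member was lower in cells with a UMI of the list than in cells without. Cells with a UMI of the list were also the deeper ones, and the part of depth was not tested.

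At equal depth the cells with no UMI of the tenocyte list gave shares close together for Dpp4 (27.7% in wild type and 28.2% in knockout cells), Pi16 (52.8% and 53.1%), Sema3c (40.6% and 40.8%), Cd55 (42.6% and 43.2%) and Smpd3 (27.2% and 27.3%). These 5 shares were no longer lower in the knockout, unlike in all selected cells, and the higher level of Sema3c was hardly visible in its share. Efhd1 (27.6% and 23.0%), Ugdh (49.6% and 46.4%), Pcolce2 (71.1% and 59.4%), Stmn4 (15.2% and 3.53%) and Arl4d (21.1% and 9.09%) were lower. Among cells without Thbs4 at 4000 UMIs, 975 wild type and 721 knockout cells, Dpp4 was seen in 27.7% (24.9 to 30.6) and 26.4% (23.2 to 29.7), Sema3c in 39.8% and 39.5%, Cd55 in 41.1% and 42.0%, Smpd3 in 25.6% and 22.2% and Ugdh in 46.8% and 48.8%. Stmn4 was seen in 14.4% (12.2 to 16.7) and 3.33% (2.14 to 4.91), Arl4d in 23.5% (20.9 to 26.3) and 9.29% (7.27 to 11.6), Efhd1 in 28.6% (25.8 to 31.6) and 20.2% (17.4 to 23.4) and Pcolce2 in 70.1% (67.1 to 72.9) and 58.2% (54.6 to 61.9). Pi16 went the other way from its level, which was split by the whole list, and was seen slightly more often with Thbs4 than without. It was seen in 56.0% against 53.0% of wild type cells and 52.8% against 50.8% of knockout cells, with overlapping intervals. Cd55 did the same in the wild type (42.8% against 41.1%) but not in the knockout (30.2% against 42.0%). Smpd3 was the member with the widest gap between Thbs4-positive and Thbs4-negative wild type cells, 8.62% against 25.6%. Leaving out cells with a UMI of Tnmd, Scx, Fmod or Mkx instead, 109 wild type and 202 knockout cells, moved little: Dpp4 was at -0.32, Sema3c at -0.10, Efhd1 at -0.88, Stmn4 at -2.48 and Arl4d at -1.92. The selection by Thbs4 was made after its values had been seen, and its part in the differences between the libraries was not tested further.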

How the data were processed

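Single-cell libraries were made with the 10x 3′ kit, version 3, per the labels' protocols. The authors deposited unnormalised UMI counts, 1 matrix of genes by barcodes per group. The submitters' processing notes name Cell Ranger 3.0.0, Seurat and mm10, and software version 3.0.2 stands in the matrix headers. How barcodes were told from empty droplets is not stated. A 3′ count reads 1 end of a transcript, so levels of different genes were not divided by length.

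UMIs were summed over the selected cells and scaled to 1000000. Log2 ratios carry exact conditional binomial intervals, sums exact Poisson intervals and shares exact Clopper-Pearson intervals, at 95% confidence, for counting error only. Cells were thinned without replacement to 4000 UMIs. Genes with a mean of at least 20 CPM were described, with lines at 1.5-fold and 2-fold. With 1 library per group there were no replicates and no tests. Named genes were all 10 members, the 10 highest and 5 lowest by the Pi16- or Dpp4-positive over negative ratio, the 5 highest by phi for Pi16 and for Dpp4 among genes seen in at least 5% of cells, and genes of the lists. The members and lists were chosen with earlier results of these data known. Doublets had been gated out in the sort, and Scrublet (scanpy 1.11.5) called 2 wild type and 1 knockout barcodes, which were left out only in an alternative. Counts were taken as deposited, and the use of strand in counting is not stated. Genes that overlap a member on its own strand had at most 2 UMIs in a library. On the opposite strand Prmt7, which overlaps Smpd3, had 296 and 398. The ratio, share, thinning and pair scripts were tested on simulated data. Python 3.11.15, numpy 2.4.6, scipy 1.17.1, R 4.3.3 and edgeR 4.0.16 (TMM factors only) were used.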

Additional observations from a re-analysis of the deposited data

Results flagged for a closer look

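Barcodes outside the selection, which had too few genes, too many mitochondrial UMIs or no Pdgfra UMI, also held UMIs of every member, above the 3 counts taken as the floor. There were 540 such barcodes in the wild type (3222266 UMIs) and 289 in the knockout (2306749 UMIs). Summed over both libraries they held 3338 UMIs of Pi16, 1095 of Pcolce2, 1025 of Ugdh, 718 of Sema3c, 697 of Cd55, 360 of Smpd3, 351 of Dpp4, 287 of Efhd1, 192 of Arl4d and 170 of Stmn4. The levels there had the same direction as in the selected cells: Stmn4 was at 47.2 CPM in wild type and 7.80 CPM in knockout cells, Arl4d at 49.7 and 13.9 CPM, Pcolce2 at 241 and 138 CPM, and Pi16 at 629 and 569 CPM.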

How the results depend on the processing

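Of the 10 members, 4 were at least 1.5-fold lower in the knockout, and this count ranged from 2 to 7 over 18 alternatives. It was 2 (Stmn4 and Arl4d) with a 2-fold line and 2 without cells with a UMI of the tenocyte list, and 7 in cells at or below the pooled median share of glucocorticoid-induced UMIs. It was 4 or 5 in the other 15, which included other gene, mitochondrial and Pdgfra limits, Scrublet doublets removed, a window of 5000 to 15000 UMIs, TMM factors and centring on the median of all genes. The count of members at least 1.5-fold higher was 0 in all 18, and all 45 pairs stayed above the product in all 16 alternatives run for them. Log2 ratios stayed below 0 in 16 of 16 alternatives for Dpp4, Pi16, Efhd1, Ugdh, Pcolce2, Stmn4 and Arl4d, and in 15 of 16 for Sema3c, Cd55 and Smpd3, whose exceptions (0.28, 0.15 and 0.04) were the cells without a tenocyte list UMI. In those cells Dpp4 (-0.01, -0.14 to 0.12) and Ugdh (-0.04, -0.11 to 0.04) had intervals that span 0. Stmn4 ranged from -2.86 to -2.11 and Arl4d from -2.12 to -1.45. In Pi16- or Dpp4-positive cells Sema3c ranged from -0.49 to 0.16. Without cells with a UMI of the tenocyte list, the equal-depth shares of Dpp4, Pi16, Sema3c, Cd55 and Smpd3 were no longer lower in the knockout, as the report gives, and without thinning those of Dpp4, Pi16, Sema3c, Cd55 and Ugdh were higher there. The shares of Efhd1, Pcolce2, Stmn4 and Arl4d were lower in 16 of 16. The cause of these changes was not tested. The alternatives on tenocyte and glucocorticoid-induced genes and on shared barcodes were chosen after seeing the data. The median log2 ratio of all genes was 0.05, which centring takes away, and TMM factors moved every ratio by -0.04. No paired analysis was possible because cells are not tied to samples and each group is 1 library, and for the same reason no sample could be left out. Depth limits Stmn4 most, with 173 knockout UMIs.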
